A study of Macaca mulatta with 24 samples.

Results

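The endometrium of rhesus monkeys at day 6 was compared between conception cycles and cycles without mating, gene by gene. The comparison used the 4 arrays labelled conception at day 6 and the 4 arrays labelled non-mated at day 6, which are 8 of the 24 arrays of the series. All animals were proven fertile females. The conception group came from cycles in which mating led to a proven conception, and the non-mated group from normo-ovulatory cycles without mating. No drug, hormone or gene alteration is named for either group. The day is given as after ovulation in the descriptions of both groups, while the source names of the conception arrays count it from fertilization. The titles of the non-mated day 6 arrays name day 2, and their source names, descriptions and characteristics, which name day 6, were used. Arrays of days 2 and 4 (13 of them, without 3 weak non-mated arrays) were set beside day 6 for the genes that lead the comparison. The labels do not state that each array of a group is from its own animal, and the p-values therefore measure the spread between the arrays alone, part or all of which may be technical.

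After ovulation, progesterone from the corpus luteum turns a proliferating endometrium into a secretory one. Epithelial proliferation stops, the glands begin to secrete, and the stroma and its leukocytes prepare for an embryo. In a conception cycle at this time the embryo has reached the uterine cavity and has not yet invaded the lining, so the comparison asks whether the endometrium already carries a different RNA profile before implantation.

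Levels are log2 fluorescence relative to the 75th percentile of the same array. A level of 0 equals that percentile, and a fall of 1 is a fall to 50% of the signal. Levels of different genes are not compared with each other, because each probe binds with its own strength. The 75th percentile itself lay between 939.6 and 3781 intensity units on 7 of the day 6 arrays and at 72.2 on conception replicate 4, which was scanned over a single range where the others were scanned over an extended one. Between 54.2% and 71.5% of the probes on each day 6 array were well above background, with the highest shares, 70.5% and 71.5%, on non-mated replicates 2 and 3. The number of arrays, the spread between them and, for dim probes, the background limit the precision of a group mean. Of 20217 probes, 11948 passed the filter on dim probes, which gave 11414 features, 7475 of them with a gene symbol.

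The tissue label was checked against markers. Of the epithelial list, 8 members were measured, among them KRT18, EPCAM, CLDN3 and PAX8, and of the stromal list 10, among them VIM, DCN, COL1A2 and COL3A1. The log2 of the summed signal of the epithelial markers lay between 5.65 and 6.72 in the conception group and between 5.97 and 6.40 in the non-mated group. For the stromal markers it lay between 6.68 and 8.51, and between 7.10 and 7.90. Conception replicate 3 had the lowest stromal array score, 1.42, where an array score is the mean log2 level over the measured members of a list, and the other 7 arrays lay between 2.26 and 3.11. Of 11 trophoblast and blastocyst markers on the array, CGA, GATA3, CDX2, TFAP2C, VGLL1 and PAGE4 were well above background on 0 arrays of either group, and 3 members passed the filter (POU5F1, TEAD4 and TFAP2A). In whole tissue, fewer cells of a type and less RNA per cell cannot be told apart, which holds for every value that follows.

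Conception replicate 1 stood apart from its group and lay nearer to the other label than to its own. Whether its label or its stage is right was not tested, and every group difference below takes it as labelled. Its correlation over all measured features was 0.851 to 0.884 with the other conception arrays and 0.926 to 0.941 with the non-mated arrays. On the first principal component, which held 38.6% of the variance, it lay at -52.4, beyond the non-mated arrays at -34.8 to -14.3, while the other conception arrays lay at 39.8 to 71.4. Replicate 1 shared slide 1 with conception replicate 2 and non-mated replicate 1, so slide 1 held an array near the non-mated group and an array far from it under the same label. The conception arrays also varied more among themselves, with a median SD per feature of 0.54 (n = 4) against 0.35 in the non-mated group (n = 4), and 0.45 without replicate 1 (n = 3). The values below are therefore given with and without that array where it changes them. Replicate 1 was singled out from these same arrays. Setting aside the conception array nearest the non-mated group tends to widen differences and lower p-values, so results without it are a description.

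**Figure D1:**
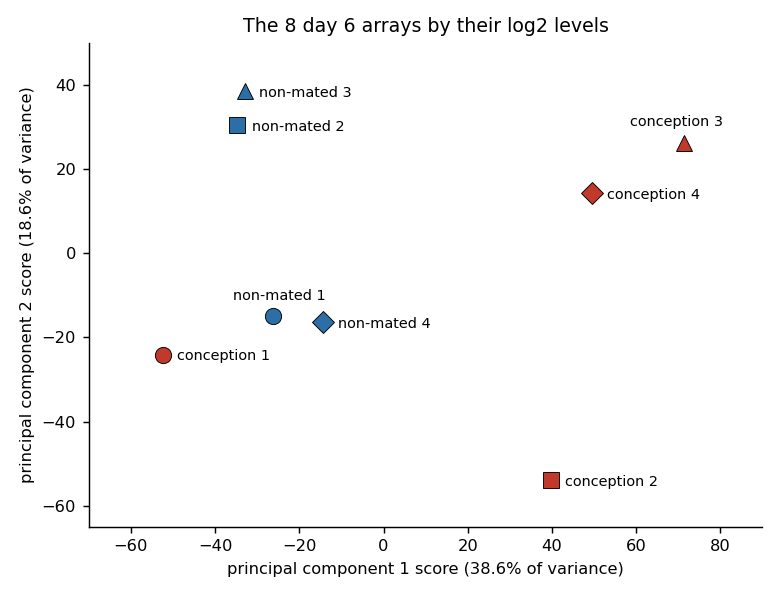
Scores of the 8 day 6 arrays on the first (x axis) and second (y axis) principal component of their log2 levels, in score units, conception arrays in red and non-mated arrays in blue, with a symbol for each replicate number. Conception replicate 1 lies at -52.4 on the x axis, on the side of the non-mated arrays, and the other 3 conception arrays lie at 39.8 or above.

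Across the 11414 features, 0 passed an adjusted p of 0.05 in the fit of the 8 day 6 arrays (limma with Benjamini-Hochberg adjustment, 0.0% of features). At an unadjusted p under 0.05 there were 1080 features (9.46%), 561 higher in the conception group (4.92%) and 519 lower (4.55%). The arrays of the groups did not overlap for 497 features (4.35%), 288 higher (2.52%) and 209 lower (1.83%). That split turned with the scaling, to 210 higher and 269 lower with arrays scaled to their median, 245 and 264 with quantile normalization and 76 and 131 with normexp background correction, while without a filter on dim probes it was 987 and 220 among 19198 features. At an unadjusted p under 0.05 the same settings gave 442 higher and 630 lower, 474 and 595, and 171 and 254. In total 5673 features had a positive and 5741 a negative log2 difference, with a median of -0.003. When the spread was estimated over 21 arrays of all days, 3 genes passed for the same day 6 comparison (0.0263%), PIWIL4, HRH1 and TMEM61, all lower in the conception group, and over all 24 arrays PIWIL4 alone passed (0.00876%). All 3 genes entered the set tested through the non-mated group only, in which they are high, and were set against conception signals not well above background on 4, 4 and 3 of 4 arrays. Of all features, 1241 passed the filter through the non-mated group only and 103 through the conception group only. Without conception replicate 1 the 8-array fit called 20 features (0.175%), 15 lower and 5 higher, and 2538 had an unadjusted p under 0.05. In simulated data of this size a log2 difference of 1 was called for 12% of altered features and a difference of 4 for 94%. The simulation altered 50 features at each of log2 1, 2, 3 and 4, and its shares depend on that number. They do not carry over to these arrays, where TEX29 at -4.62 and CRYGS at -4.14 did not pass (limma adjusted p = 0.307).

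PIWIL4 encodes a member of the Argonaute family that binds PIWI-interacting RNAs, a small RNA class known best for silencing transposons in the male germ line. Its level was -3.91, -4.59, -5.62 and -3.73 on conception replicates 1 to 4, and -1.44, -1.25, -1.66 and -1.58 on non-mated replicates 1 to 4. The non-mated arrays lay close together, the conception arrays were all lower by a wide gap, and conception replicate 1 lay with its own group for this gene. PIWIL4 differed by -2.98 ± 0.40 on the log2 scale (SE, n = 4 against 4, limma adjusted p = 0.231). With the spread of 21 arrays the adjusted p was 0.0179, with that of 24 arrays 0.0278, and without conception replicate 1 the difference was -3.17 (adjusted p = 0.0337). The probe was well above background on 4 of 4 non-mated arrays and on 0 of 4 conception arrays, so the conception values are bounds. For the bound, each conception array was set to its own level or its lowest signal among probes well above background, whichever was higher. PIWIL4 was then at least 6.09-fold lower. With normexp background correction and an added offset of 50 intensity units in place of the scanner software's correction, the difference was -1.55. An offset draws dim signals together, and 50 is large beside the 75th percentile of 72.2 on conception replicate 4. The parts of the correction and of the offset in that value were not told apart.

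HRH1 encodes the histamine H1 receptor, through which histamine acts on smooth muscle, endothelium and epithelium. Conception replicates 1 to 4 had levels of -5.58, -5.69, -6.22 and -5.76, and non-mated replicates 1 to 4 had -2.89, -2.51, -2.68 and -4.20. Again the groups did not overlap, with non-mated replicate 4 the closest to the conception group and the only non-mated array not well above background. The log2 difference was -2.74 ± 0.38 (adjusted p = 0.231, and 0.0319 with the spread of 21 arrays). As 0 of 4 conception arrays were well above background, the fold is a bound, at least 2.23-fold lower. On 3 of them the value is the substitute that the scanner software writes for a signal not above background, which is -5.58 on replicate 1, -5.69 on replicate 2 and -6.22 on replicate 3, and such values have no order. TMEM61 encodes a membrane protein. Its levels were -5.58, -5.69, -5.16 and -3.66 in the conception group and -1.52, -2.85, -1.75 and -1.82 in the non-mated group, with conception replicate 4 the nearest to the non-mated arrays and the only conception array well above background. The log2 difference was -3.04 ± 0.49 (adjusted p = 0.307, and 0.0319 with 21 arrays). The TMEM61 values of conception replicates 1 and 2 are such substitutes.

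These 3 calls rested on the spread estimated over 21 arrays and on several day 6 arrays. Leaving out each of the 21 arrays in turn, PIWIL4 passed in 17 fits (adjusted p from 0.00775 to 0.108), HRH1 in 9 (0.0149 to 0.210) and TMEM61 in 8 (0.00841 to 0.189). All 3 calls ended without conception day 6 replicate 2 or 3 and without non-mated day 6 replicate 1 or 2, and HRH1 also lost its call without conception replicate 4 or non-mated replicate 3. TMEM61 did not pass without non-mated day 6 replicate 3 or 4. Outside day 6, HRH1 and TMEM61 lost their calls, at adjusted p between 0.0513 and 0.0541, without conception day 2 replicate 2 or 3, conception day 4 replicate 2, non-mated day 2 replicate 2 or non-mated day 4 replicate 3 or 4, and TMEM61 without conception day 2 replicate 4 (0.058). With normexp background correction and its offset 0 genes passed in that fit, HRH1 differed by -1.27 and TMEM61 by -1.37, and with quantile normalization TMEM61 did not pass (adjusted p = 0.0557). With the slide as a fixed block in 24 arrays 0 features passed (107 at an unadjusted p under 0.05), and PIWIL4 differed by -2.73 ± 0.61 (SE, limma adjusted p = 1.00). Within the scanning batches the differences of these genes could not change direction, because their groups do not overlap, so only the sizes are given. Within slide 1 (2 conception arrays and 1 non-mated array of day 6), PIWIL4 differed by -2.81, HRH1 by -2.74 and TMEM61 by -4.12. On scan day 1 (2 arrays of each group) the differences were -3.22, -3.40 and -2.10, and on scan day 2 (2 arrays of each group, slide 1 included) -2.74, -2.09 and -3.97. On scan day 1 the groups lay on different slides, so slide and cycle type cannot be told apart there.

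The probes behind these calls are shown because each gene's result rests on a single probe. Each is an oligonucleotide of 60 bases, placed by the array files on rheMac2 at chr14:93162324-93162383 (plus strand) for PIWIL4, chr2:49761196-49761255 (minus strand) for HRH1 and chr1:57846192-57846251 (plus strand) for TMEM61. An annotation of that build was not used here, so the exon or untranslated region under each probe is not stated. Their first 30 bases, 5′ to 3′, are:
PIWIL4: attcccaccccagattttcctgaggttttg
HRH1: tggcagctcaaaatgatatgttgagtagac
TMEM61: tgctcaggcctggttcagactgcacgggga

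The remaining lower genes of smallest p did not pass the test and are given as values, with adjusted p-values from 0.275 to 0.307 (limma). Among genes of signalling, CNIH3, which encodes an auxiliary protein of glutamate receptors, had levels of -4.86, -4.69, -3.43 and -5.23 in the conception group and -1.90, -1.41, -0.91 and -2.27 in the non-mated group, a difference of -2.93 ± 0.44. FZD5, a Wnt receptor gene, differed by -1.53 ± 0.32, PRKX, which encodes a protein kinase activated by cyclic AMP, by -1.59 ± 0.35, and a second PRKX probe by -1.60. KCNK13, a potassium channel gene, lay at -3.05, -5.69, -6.22 and -3.16 in the conception group and at -0.04, -0.23, 0.10 and -1.84 in the non-mated group. The difference of KCNK13 was -4.03 ± 0.78, and non-mated replicate 4 was the lowest of its group by a wide gap.

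ODC1, which encodes the rate-limiting enzyme of polyamine synthesis, is a bright probe that was well above background on every day 6 array. Its levels were 2.65, 2.82, 2.65 and 3.66 in the conception group and 4.82, 4.62, 4.95 and 4.10 in the non-mated group, a difference of -1.67 ± 0.31. Conception replicate 4 and non-mated replicate 4 were the closest pair, and the groups did not overlap. GCHFR, whose product regulates tetrahydrobiopterin synthesis, differed by -2.68 ± 0.61, with 1 conception array well above background. CSRNP1, which encodes a nuclear protein, had a difference of -1.45 ± 0.32 with all 8 arrays above background, and the epithelial transcription factor gene OVOL1 one of -1.23 ± 0.27.

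Some of the lower genes are known from other tissues. TEX29, named for expression in the testis, had levels of -1.84, -3.27, -4.88 and -4.40 in the conception group and 1.62, 1.70, 2.11 and -1.33 in the non-mated group, a difference of -4.62 ± 0.85. CRYGS, which encodes a lens crystallin, had levels of 0.26, -1.08, -3.04 and 0.26 and 3.45, 4.00, 4.55 and 0.94 in the same order, a difference of -4.14 ± 0.91. In both, non-mated replicate 4 lay far below the other 3 non-mated arrays and near the conception group. CFAP100, a gene of the motile cilium, differed by -2.69 ± 0.52, TRAT1, which encodes an adaptor of the T cell receptor, by -2.78 ± 0.58, and FAM124B by -1.97 ± 0.43 (at least 1.88-fold lower, with 0 conception arrays well above background).

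On the higher side the differences were smaller. For 13 of the 15 genes of smallest p on that side the probe was well above background on at least 3 arrays of both groups, against 7 of the 15 on the lower side. Over all features the same held for 10070 of 11414, a share close to that of the higher side. The other 8 lower genes had fewer than 3 conception arrays above background, so their differences rest in part or wholly on signals not well above background. MIDN, whose product helps deliver nuclear proteins to the proteasome, lay at -0.21, 0.13, 1.21 and 0.04 on the conception arrays and -1.10, -1.45, -1.34 and -1.20 on the non-mated arrays. All conception arrays, replicate 1 included, were above all non-mated arrays for MIDN, with a difference of 1.56 ± 0.32 (adjusted p = 0.307).

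Homeobox genes were among them. SIX2 lay at 0.06, -0.43, -0.44 and -0.57 in the conception group and -2.76, -2.24, -1.64 and -1.25 in the non-mated group, a difference of 1.63 ± 0.35, and DLX3 differed by 1.51 ± 0.34. Genes of receptors and ligands on that side were LPAR1, a receptor for lysophosphatidic acid, at 1.51 ± 0.34, RTN4R, the Nogo receptor gene, at 1.06 ± 0.24, and GUCA2A, which encodes the peptide hormone guanylin, at 1.14 ± 0.26. Adhesion was represented by the cadherin gene CDH22 at 1.12 ± 0.25 and the connexin gene GJD4 at 1.13 ± 0.25, and metabolism by ISYNA1, whose enzyme makes inositol phosphate from glucose phosphate, at 1.23 ± 0.27. CCDC27 (1.88 ± 0.41), NAIF1 (1.37 ± 0.30), TMEM145 (1.21 ± 0.26), VAT1L (1.25 ± 0.28) and ABHD1 (1.27 ± 0.29) were also on that side, and the groups did not overlap for any of the genes named. RTN4R and ABHD1 were each well above background on 4 conception arrays and 2 non-mated arrays. They passed the filter through the conception group only, in which they are high. Without conception replicate 1 none of the 15 higher genes passed, and on the lower side PIWIL4 and PRKX did (-1.93, adjusted p = 0.0237).

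**Figure D2:**
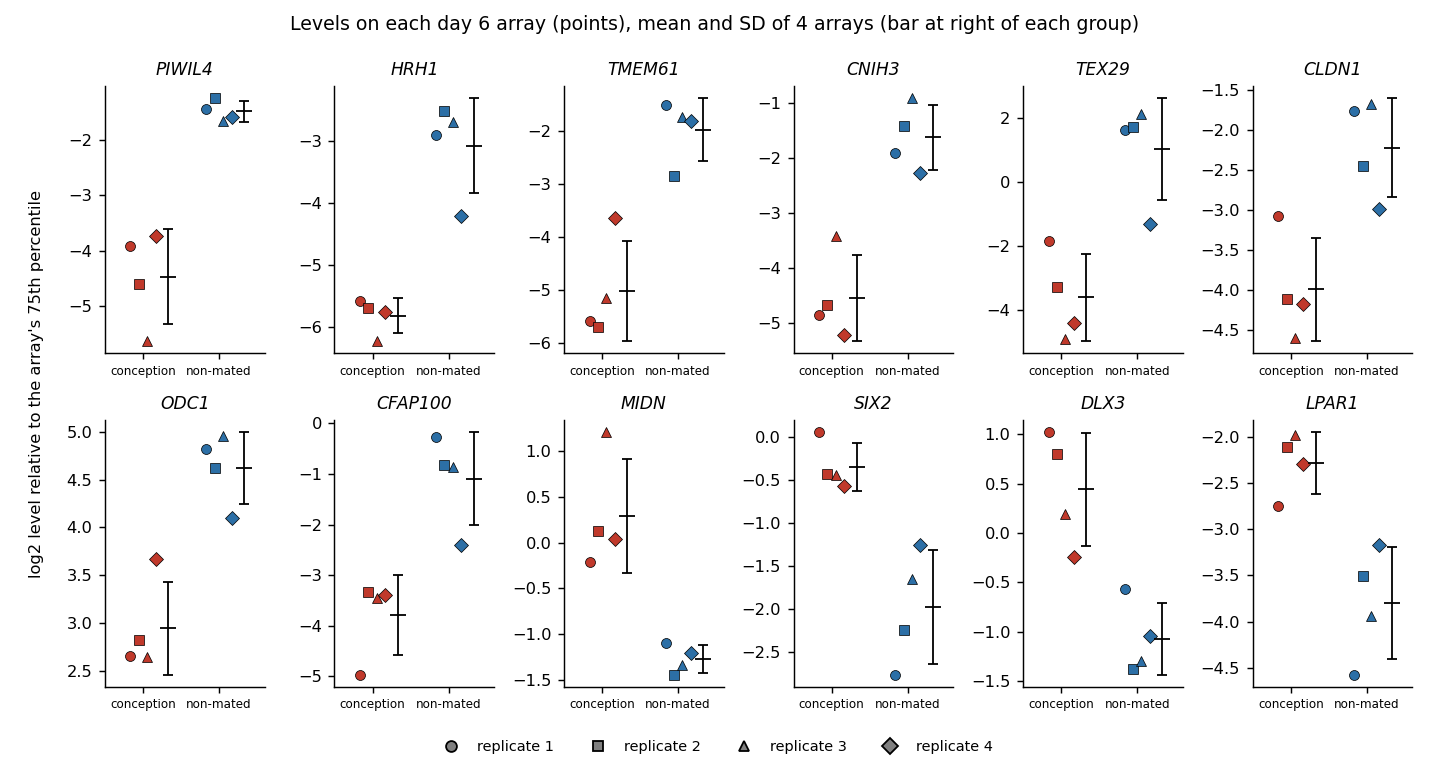
Log2 level relative to the array's 75th percentile (y axis, a separate scale for each gene) of 12 genes on each day 6 array, with a symbol for each replicate, conception in red and non-mated in blue, and the mean and SD of 4 arrays as the bar at the right of each group. The groups do not overlap in any panel, and PIWIL4 shows the tight non-mated values from -1.66 to -1.25 against -5.62 to -3.73.

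Days 2 and 4 were set beside day 6 for these genes. PIWIL4 lay at -3.19, -1.85, -1.34 and -2.31 on the conception arrays of day 2, at -3.72, -2.62, -4.18 and -3.90 on those of day 4, and in the non-mated group at -0.94, -1.96 and -1.48 on 3 arrays of day 2 and -1.34 and -1.31 on 2 arrays of day 4. HRH1 lay at -3.96, -2.66, -2.83 and -1.86 on the conception arrays of day 2 and -5.47, -5.32, -5.63 and -4.47 on those of day 4, against -3.99, -2.87 and -2.24 and -2.14 and -2.15. TMEM61 lay at -2.54, -0.68, -1.07 and -1.38 and -4.44, -4.13, -5.50 and -5.34 in the same order, against -2.40, -2.15 and -0.87 and -2.39 and -2.02. At day 2 the groups overlapped for all 3 genes, and at day 4 every conception array was below both non-mated arrays. Of the 4 conception arrays of day 4, 2 were well above background for PIWIL4 and 0 for HRH1 and TMEM61, so the day 4 differences, and their comparison with day 6, rest in part or wholly on signals not well above background. The differences at days 2, 4 and 6 were -0.71, -2.28 and -2.98 for PIWIL4, 0.20, -3.07 and -2.74 for HRH1, and 0.39, -2.65 and -3.04 for TMEM61. Whether the difference changed between days was tested as an interaction in the 21 arrays. For day 6 against day 2, 0 features passed (0.0%; 497 at an unadjusted p under 0.05, 4.35%), with adjusted p = 0.928 for PIWIL4, 0.928 for HRH1 and 0.928 for TMEM61 by limma. For day 6 against day 4, 0 passed as well (0.0%; 317 at an unadjusted p under 0.05, 2.78%).

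Of the 30 named genes with the smallest p-values at day 6, 29 had the same direction at day 4, where 58.7% of all features did, and 18 had it at day 2, where 47.9% of all features did. Of the 497 features whose groups did not overlap at day 6, 82.5% had the same direction at day 4 and 47.3% at day 2. The day 4 and day 2 arrays were not used to choose these genes, but some share slides with the day 6 arrays. The day 4 non-mated arrays kept here were 2 arrays of scan day 1, on slides that held no conception array, so slide and cycle type cannot be told apart at day 4. Those slides, 5 and 6, also held non-mated day 6 replicates 2 and 3. Slides 7 and 8 held conception replicates 3 and 4 of both days. The day 4 directions are therefore not independent of the slides on which the genes were chosen.

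**Figure D3:**
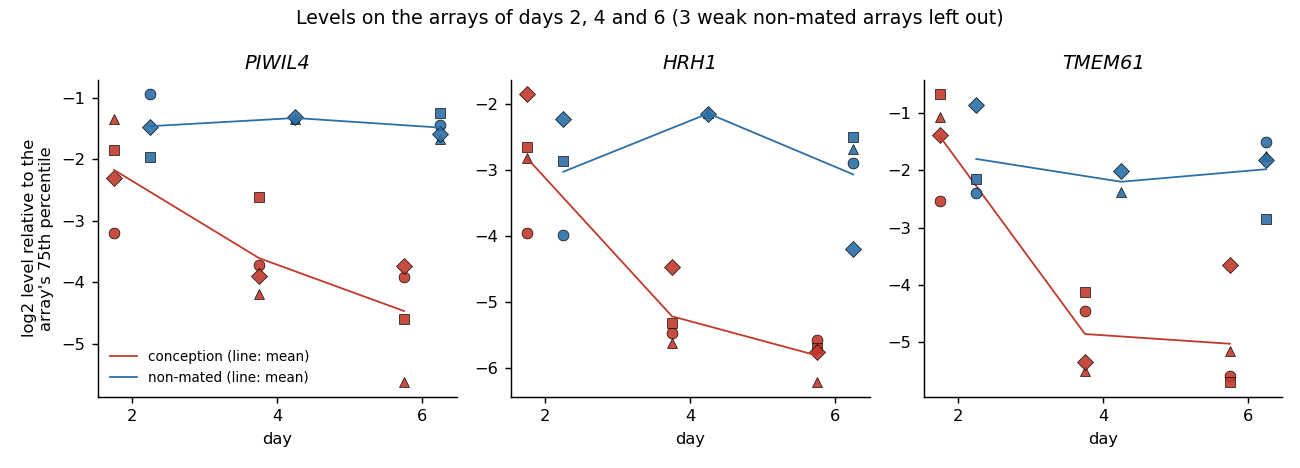
Log2 level relative to the array's 75th percentile (y axis) of PIWIL4, HRH1 and TMEM61 on days 2, 4 and 6 (x axis), 1 point for each array and a line through the group means, conception in red and non-mated in blue. At day 6 all conception arrays lie below all non-mated arrays for the 3 genes, and at day 2 the groups overlap.

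Groups of genes were then described by the members measured, with no test of a list. Since 0 features passed in the 8-array fit, 0 members of any list passed, and counts of members below an unadjusted p of 0.05 are to be read against 4.92% of all features on the higher side and 4.55% on the lower. The array scores of every list overlapped between the groups. A measured member can have passed the filter through a single group, and its difference then rests in part or wholly on signals not well above background.

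Regulators that respond to progesterone and glucocorticoids were mostly lower, with 19 of 24 measured members below 0 and a median difference of -0.32, against -0.003 for all features (the list's median was -0.35 on scan day 1 and -0.59 on scan day 2). At an unadjusted p under 0.05, 3 were lower and 0 higher. ZBTB16, a zinc finger transcription factor gene strongly induced by progesterone in endometrial stroma, lay at 3.79, -1.11, -0.85 and 0.32 on the conception arrays and at 3.79, 3.75, 3.84 and 2.42 on the non-mated arrays. Conception replicate 1 had a level like that of the non-mated arrays, and the other 3 conception arrays were lower than every non-mated array. The difference was -2.92 ± 0.96 (limma adjusted p = 0.427) and, without replicate 1, -4.00 (limma adjusted p = 0.0237). Replicate 1 was set aside after its position in these arrays was seen, so the second p-value is a description.

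WNT4, a Wnt ligand gene needed for decidualization in mice, followed the same order, with levels of 0.70, -1.94, -3.95 and -1.13 against 1.52, 1.27, 1.13 and -0.52 and a difference of -2.43 ± 0.88 that was -3.19 without replicate 1. The clock gene PER1 differed by -0.87 ± 0.39. GATA2, a transcription factor gene that acts with the progesterone receptor, was the only member whose groups did not overlap, at 2.56, 2.94, 2.26 and 2.83 against 3.61, 3.61, 3.42 and 3.09, a difference of -0.78 ± 0.25. On the higher side PGRMC1, which encodes a haem-binding membrane protein, lay at 0.88 ± 0.48. The array scores of the list were 1.44, 0.31, 0.60 and 1.02 on conception replicates 1 to 4 and 1.397, 1.51, 1.34 and 1.26 on non-mated replicates 1 to 4, so replicate 1 lay within the non-mated range and the other 3 lay below it. Without replicate 1 the list's median was -0.51.

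Secretory phase receptivity genes, many but not all of which rise in the window of implantation, gave 10 of 17 measured members lower. Their median was -0.11, which was -0.55 without conception replicate 1, -0.49 on scan day 1 and -0.12 on scan day 2. CXCL14, a chemokine gene that attracts monocytes and natural killer cells, lay at -2.59, -3.58, -5.37 and -3.46 in the conception group and -1.86, -1.33, -2.28 and -1.51 in the non-mated group. The groups did not overlap, and the difference was -2.01 ± 0.53 (adjusted p = 0.378). The tight junction gene CLDN4 differed by -1.33 ± 0.48 and the Wnt antagonist gene DKK1 by -1.97 ± 0.79. CXCL14 and DKK1 were each well above background on 2 conception arrays and 4 non-mated arrays. GAST, the gastrin gene, was the member with the smallest p on the higher side, at -1.13, -0.68, -0.86 and -0.37 against -1.502, -2.18, -2.39 and -1.78, a difference of 1.20 ± 0.28 without overlap (adjusted p = 0.314).

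PAEP, which encodes glycodelin, had levels of -2.99, -1.68, -3.39 and -3.17 in the conception group and -1.92, -3.63, -3.33 and -1.87 in the non-mated group, a difference of -0.11 ± 0.52. SPP1, the osteopontin gene, lay at 0.82, -1.80, -0.91 and -2.16 and -2.31, 0.70, 0.48 and -2.23, a difference of -0.17 ± 0.87. In both genes the groups overlapped fully, and the sign of the difference turned with the processing. LIF, a cytokine gene required for implantation in mice, was well above background on 0 conception and 2 non-mated arrays and did not pass the filter, and the receptor gene LIFR differed by -1.01 ± 0.30 with 0 conception arrays above background. IGFBP1 and OLFM4 were above background on 0 arrays. PGR, ESR1, HAND2 and FOXO1 were not analysed here.

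Cell cycle and DNA replication genes were higher for 22 of 24 measured members, with a median of 0.68 (0.81 on scan day 1 and 0.55 on scan day 2). BIRC5, which encodes the mitotic regulator survivin, lay at -4.45, -2.77, -3.49 and -2.23 in the conception group and -3.70, -4.38, -4.48 and -4.62 in the non-mated group, a difference of 1.06 ± 0.46. It was well above background on 3 conception and 2 non-mated arrays, so it passed the filter through the conception group only, in which it is high. E2F1, a transcription factor gene of the G1 to S transition, lay at -2.42, 0.13, -1.12 and -0.76 against -2.41, -1.90, -2.56 and -1.76, a difference of 1.11 ± 0.49 (adjusted p = 0.525). These were the 2 members with an unadjusted p under 0.05, and in both, conception replicate 1 lay among or below the non-mated arrays and the other 3 above all of them. The array scores showed the same, at -1.89, 1.22, -0.53 and -0.20 for conception replicates 1 to 4 and -0.83, -1.03, -1.22 and -0.91 for the non-mated ones. Replicate 1 had the lowest score of all 8 arrays and replicate 2 the highest, and without replicate 1 the median was 1.11. MKI67, CDC6 and MCM6, also on the list, were well above background on 0 arrays of either group.

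Sterol and fatty acid synthesis genes were lower for 19 of 22 members, with a median of -0.44 that was -0.45 without replicate 1, -0.27 on scan day 1 and -0.49 on scan day 2. LSS, which encodes lanosterol synthase, lay at 0.25, 0.15, -0.07 and -0.47 against 0.99, 0.94, 1.45 and 0.81, a difference of -1.08 ± 0.26 without overlap (adjusted p = 0.323). MVK, which encodes mevalonate kinase, differed by -0.75 ± 0.30. FDPS, the farnesyl diphosphate synthase gene, differed by -0.52 ± 0.23, but a second FDPS probe lay at 0.46, so its direction depended on the probe. The scores overlapped, with conception arrays at 0.13, -0.14, 0.14 and 0.42 and non-mated arrays at 0.38, 0.37, 0.87 and 0.42.

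Glycolysis and hypoxia response genes were lower for 22 of 25 members, with a median of -0.44. Their median was -0.86 on scan day 1 and 0.00 on scan day 2, so the shift was seen on 1 scan day, on which slide and cycle type cannot be told apart. PFKFB3, which encodes a regulator of glycolytic flux, differed by -1.97 ± 0.71, the glucose transporter gene SLC2A3 by -0.83 ± 0.31 and DDIT4, an inhibitor of mTOR signalling, by -1.42 ± 0.56. PFKFB3 was well above background on 1 conception array and SLC2A3 on 0, so SLC2A3 was at least 1.33-fold lower. NDRG1, a gene induced by hypoxia, went the other way, at -2.14, -1.25, -2.04 and -1.27 against -2.10, -4.79, -3.12 and -4.19, a difference of 1.87 ± 0.55 (adjusted p = 0.382). Among ribosomal protein genes 18 of 22 were higher, at a median of 0.34, which was 0.68 on scan day 1 and 0.09 on scan day 2. RPS19 (0.63 ± 0.25) and RPS16 (0.82 ± 0.33) had groups that did not overlap. Genes of oxidative phosphorylation (35 measured, median 0.07), of the unfolded protein response and secretory pathway (24, 0.08) and of heat shock proteins (19, 0.05) had medians close to that of all features and 0 members with an unadjusted p under 0.05.

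Immediate early genes, which respond within minutes to stimulation and to tissue handling, gave 10 of 15 lower with a median of -0.41. Their median was -0.02 on scan day 1 and -0.30 on scan day 2, so it was close to that of all features on 1 scan day. JUN lay at 2.02, 0.11, 0.35 and 1.68 against 2.52, 2.03, 2.24 and 2.44, a difference of -1.27 ± 0.44 without overlap, and MYC differed by -0.997 ± 0.43. GADD45B, a growth arrest and stress gene, is not on that list and differed by -1.31 ± 0.35 without overlap (limma adjusted p = 0.378). It belongs to the NDRG and differentiation stress list, where 6 of 9 measured members were higher and the median was 0.36.

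**Figure D4:**
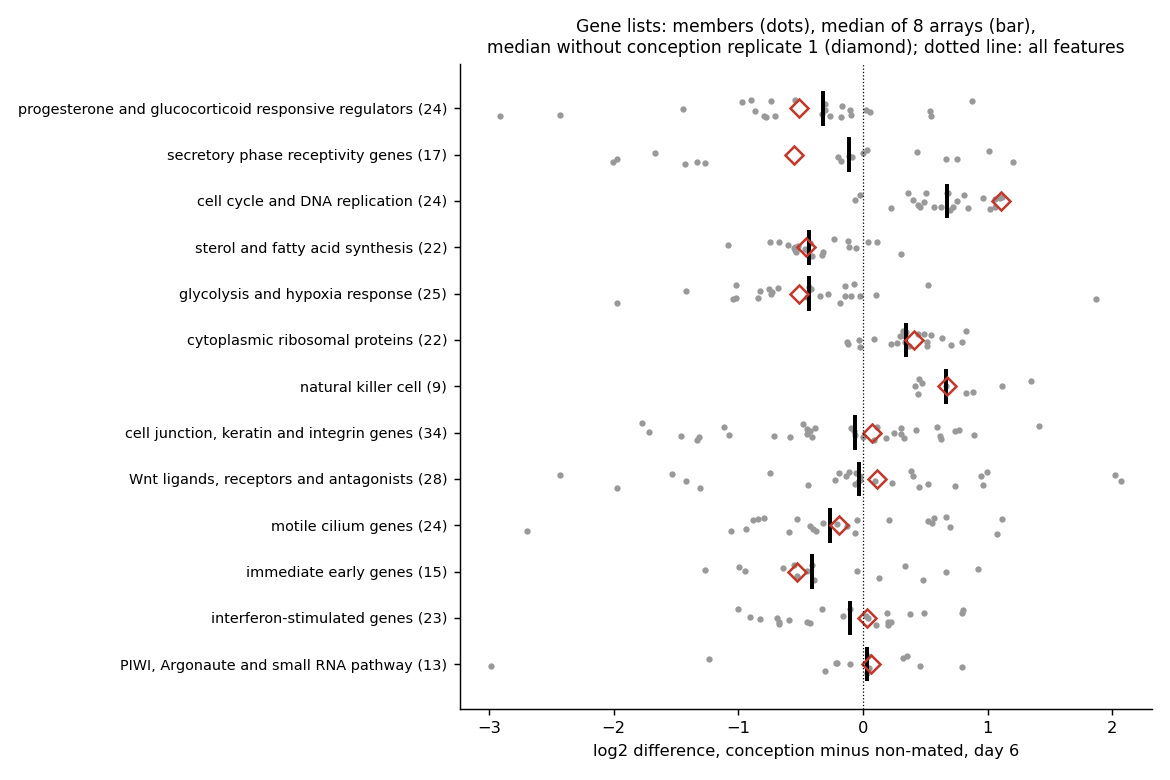
Log2 difference of conception minus non-mated (x axis) for every measured member (dots) of 13 gene lists (y axis, number of members in brackets), with the median as a bar and the median without conception replicate 1 as a red diamond. Cell cycle members lie mostly right of the dotted line of all features at -0.003, with a median of 0.68, and sterol and fatty acid synthesis members mostly left of it, with a median of -0.44.

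Cell junction, keratin and integrin genes were divided, with 16 of 34 members higher and 18 lower, a median of -0.07, and 5 lower and 1 higher at an unadjusted p under 0.05. CLDN1, which encodes a claudin of tight junctions, lay at -3.08, -4.12, -4.60 and -4.18 in the conception group and -1.76, -2.46, -1.68 and -2.99 in the non-mated group. CLDN1 differed by -1.77 ± 0.41 without overlap (adjusted p = 0.307), with 1 conception array well above background. The integrin gene ITGB8 differed by -1.46 ± 0.49, also without overlap, and the epithelial keratin gene KRT19 by -1.12 ± 0.48. ITGA2B, an integrin gene of megakaryocytes and platelets, was the member of smallest p on the higher side, at 1.41 ± 0.49. Beside KRT19 and CLDN4, the epithelial marker list as a whole had a median of -0.18, with EPCAM at 0.89 and KRT18 at -0.48, so its members did not move together. Its part in these differences was not tested.

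Wnt pathway genes were also divided, with 12 of 28 higher and 16 lower and a median of -0.03. Lower values were those of the receptor gene FZD5 and the ligand genes WNT4 and WNT3 (-1.42 ± 0.52, with 0 conception arrays well above background), and of the antagonist gene DKK1. PORCN, whose enzyme attaches the lipid that Wnt ligands need for secretion, was on the higher side at -3.72, -0.20, -0.87 and -2.12 against -3.31, -3.90, -5.07 and -2.92, a difference of 2.07 ± 0.75. Conception replicate 1 lay within the non-mated range for PORCN and the other 3 above it. In the activin, BMP and TGF-beta family 14 of 30 were higher and the median was -0.03. FSTL3, which encodes an activin-binding protein, differed by -1.43 ± 0.54 and the receptor gene BMPR1B by -1.72 ± 0.73. SPRED2, which encodes an inhibitor of Ras signalling, lay at 1.26 ± 0.46 and EFNA1, an ephrin ligand gene, at 1.02 ± 0.34, each without overlap and each among lists with medians of -0.14 (EGF family, 9 members) and 0.05 (angiogenic ligands and receptors, 25 members).

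Among extracellular proteases and inhibitors the median was -0.03 over 24 members. MMP11, which encodes the stromelysin of remodelling stroma, had levels of 1.73, 6.49, 5.89 and 4.34 in the conception group and 2.37, 1.93, 2.26 and 3.51 in the non-mated group. Conception replicate 1 was the lowest of all 8 arrays and the other 3 conception arrays were the 3 highest. The difference of MMP11 was 2.10 ± 0.91, and 3.06 without replicate 1 (adjusted p = 0.056). HTRA1, a serine protease gene of the decidua and placenta, lay at 3.46, 5.54, 4.995 and 4.54 against 3.61, 3.39, 3.63 and 3.42, a difference of 1.12 ± 0.41, with conception replicate 1 within the non-mated range and the other 3 conception arrays above it. SERPINA3, a protease inhibitor gene, differed by -1.08 ± 0.44.

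Of the small RNA pathway, 13 members were measured and the median was 0.03, so PIWIL4 did not represent its list. TDRD9, whose product works with PIWI proteins in the germ line, differed by -1.24 ± 0.76, TNRC6C, a partner of Argonaute proteins in microRNA silencing, by 0.79 ± 0.36, and DICER1, DROSHA and MOV10 by -0.10, 0.04 and 0.05. In the histamine list, HNMT, which encodes the enzyme that inactivates histamine inside cells, lay at 0.86, -0.17, 0.30 and 2.11 against 1.53, 1.82, 1.80 and 1.94, a difference of -1.002 ± 0.44. Of 24 motile cilium genes 16 were lower and the median was -0.26, -0.55 on scan day 1 and 0.01 on scan day 2. CFAP100 was the lowest of them, while the master regulator gene FOXJ1 (1.07 ± 0.42) and the filament gene TEKT4 (0.70 ± 0.25) were on the higher side.

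Steroid, prostaglandin and transport genes gave few values apart. CYP17A1, which encodes the enzyme at the entry to androgen synthesis, lay at -0.85, -0.63, -1.16 and -1.20 against -1.54, -2.05, -2.34 and -1.72, a difference of 0.95 ± 0.26 without overlap (adjusted p = 0.378). HSD17B11 differed by -1.01 ± 0.44. HPGDS, which encodes a prostaglandin D synthase, lay at 1.16 ± 0.39, and ABCC4, an exporter of prostaglandins and cyclic nucleotides, at -0.77 ± 0.27, in a list of 10 with a median of -0.46 (-0.56 on scan day 1 and -0.13 on scan day 2). PTGS2 and PTGS1, the cyclooxygenase genes, differed by -1.48 and -1.32, and neither had an unadjusted p under 0.05. SCNN1B, an epithelial sodium channel subunit gene, lay at 0.83 ± 0.31 without overlap and the glucose transporter gene SLC2A12 at 1.16 ± 0.45. Among 21 homeobox and patterning genes, MSX2 (0.90 ± 0.30), HOXB7 (1.24 ± 0.50) and HOXD10 (0.62) were higher without overlap, HOXA10 lay at -0.67 and HOXA11 at 0.02, and the median was 0.08.

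Metallothionein genes and their regulators (6 measured) had a median of -0.51, -1.501 on scan day 1 and 0.35 on scan day 2. MT2A, which encodes a zinc-binding metallothionein, lay at 1.46, -0.82, -1.81 and -0.43 in the conception group, where replicate 1 was the highest of all 8 arrays, and at 0.33, 1.03, 0.02 and 0.58 in the non-mated group.

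**Figure D5:**
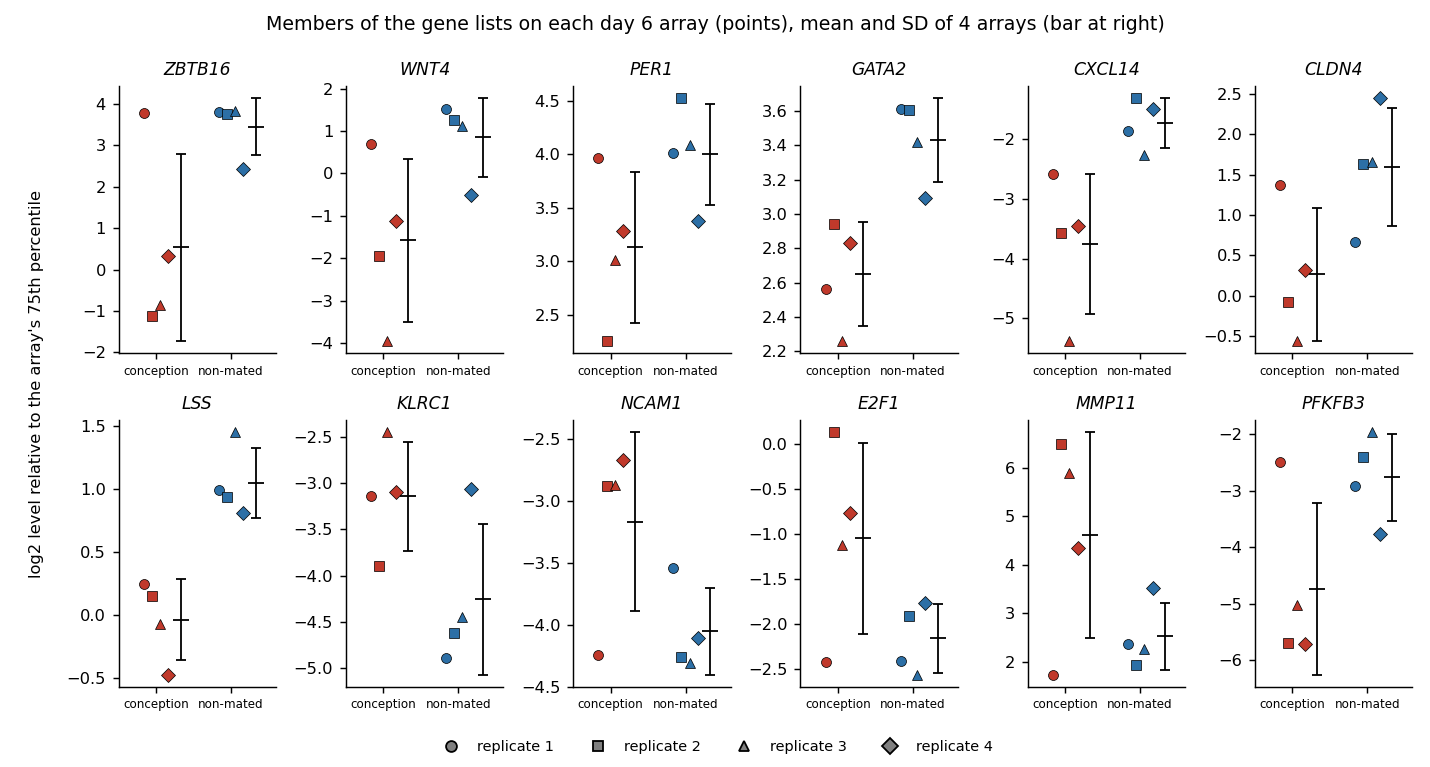
Log2 level relative to the array's 75th percentile (y axis, a separate scale for each gene) of 12 members of the gene lists on each day 6 array, symbols as replicates, conception in red and non-mated in blue, with the mean and SD of 4 arrays at the right of each group. For ZBTB16 conception replicate 1 lies at 3.79 beside the non-mated arrays and replicates 2 to 4 lie at 0.32 or below, and GATA2, CXCL14 and LSS show groups that do not overlap.

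Natural killer cell markers were higher for 9 of 9 measured members, with a median of 0.67 with all arrays and 0.67 without conception replicate 1. KLRC1, which encodes an inhibitory receptor of these cells, lay at -3.14, -3.89, -2.45 and -3.10 in the conception group and -4.89, -4.62, -4.45 and -3.07 in the non-mated group, a difference of 1.11 ± 0.45. TBX21, the T-bet transcription factor gene, differed by 1.35 ± 0.54, the CD56 gene NCAM1 by 0.89 ± 0.38 and NKG7, a gene of cytotoxic granules, by 0.83 ± 0.37 (adjusted p = 0.487 to 0.525). PRF1, GZMA, GZMB, GZMK and GNLY, whose products are carried in those granules, lay between 0.42 and 0.67. The array scores were 0.21, 0.32, 0.74 and 0.12 in the conception group and -0.67, -0.74, -0.70 and 0.56 in the non-mated group. Non-mated replicate 4 was above 3 of the 4 conception arrays, and the other non-mated arrays were below all of them. The list's median was 1.22 on scan day 1 and 0.26 on scan day 2. XCL1 and EOMES, also on the list, were well above background on 0 arrays. KLRC1 belongs to a family of near-identical genes, so its probe may not be specific.

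Other leukocyte markers were less uniform. Macrophage and monocyte markers gave 7 of 8 higher with a median of 0.31, which was 0.19 without conception replicate 1, 0.03 on scan day 1 and 0.34 on scan day 2. CSF1R, the receptor gene for their growth factor, lay at -0.69. T cell markers had a median of 0.43 over 5 members (0.24 on scan day 1 and 0.47 on scan day 2), and CSF3R alone of the neutrophil list was measured (-1.24 ± 0.52, 0 conception arrays above background). Complement genes gave 8 of 12 higher, with a median of 0.40 (0.60 on scan day 1 and 0.34 on scan day 2), properdin (CFP) at 0.74 ± 0.24, the anaphylatoxin receptor gene C5AR1 at 1.08 ± 0.40 and C5 at -0.72 ± 0.25. Interferon-stimulated genes had 11 of 23 higher and a median of -0.11. IRF7, a transcription factor gene of the interferon response, lay at -0.96, -1.03, -0.12 and -0.32 against -0.04, 0.77, 0.53 and -0.07, a difference of -0.91 ± 0.32 without overlap, IFITM1 at -1.01 ± 0.41, and IFIH1, a sensor of viral RNA, at 0.80 ± 0.34. Of the red cell list AHSP, a haemoglobin chaperone gene, lay at 0.59 ± 0.23 and HBB at 0.06.

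POU5F1, the pluripotency gene that was counted among the trophoblast and blastocyst markers, lay at -3.46, -3.51, -2.63 and -4.70 in the conception group and at -1.69, -0.01, -2.41 and -0.97 in the non-mated group. The groups did not overlap, and the difference was -2.30 ± 0.57 (adjusted p = 0.351), lower in the conception group. POU5F1 has near-identical copies in primate genomes, so its value is uncertain. The other 2 measured members, TEAD4 and TFAP2A, lay at 1.03 and 0.46.

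Without conception replicate 1, 20 features passed an adjusted p of 0.05, and 10 of them had a gene symbol, all lower in the conception group. Those named here, after their values were seen, are ADCY5, NNMT, TOX2, PRKX, ZBTB16, MTF1, TLR5, PIWIL4 and SAFB2. The array set aside was chosen from the same data, so these calls are a description. NNMT, which encodes nicotinamide N-methyltransferase, lay at -1.32, -5.69, -6.22 and -5.47 on conception replicates 1 to 4 and at -0.93, -1.31, -1.64 and -2.67 on the non-mated arrays. TOX2, a transcription factor gene of lymphocytes, lay at -0.25, -5.69, -6.22 and -5.80 and -1.29, -0.88, -1.15 and -2.83 in that order. ADCY5, an adenylyl cyclase gene, lay at -2.87, -5.54, -6.22 and -5.80 against -3.45, -3.18, -3.21 and -3.11. In all 3, conception replicate 1 lay at or above the middle of the non-mated arrays, and the other 3 conception arrays were near the lower end of the measurable range, where levels have no order. SAFB2, an RNA-binding protein gene, was not near that limit, at -0.20, -2.95, -3.12 and -3.28 against -1.65, -1.40, -1.64 and -1.34, and there replicate 1 was the highest of all 8 arrays.

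The position of conception replicate 1 can be counted over all features. When it was set aside, the other 3 conception arrays did not overlap with the 4 non-mated arrays for 2218 features, 1090 higher and 1128 lower. On 497 of those features replicate 1 lay on the side of its group, on 850 within the range of the non-mated arrays and on 871 beyond that range, on the side away from its own group. When another conception array was set aside, between 728 and 848 features did not overlap, and the array set aside lay beyond the non-mated range for 60 to 106 of them. When a non-mated array was set aside the counts were 580 to 1045, the largest for replicate 4.

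Features most like PIWIL4 over the 8 arrays, by Pearson's r, were ST5 (0.954), THAP4 (0.953), KCNK13 (0.953), GCHFR (0.947) and the unnamed probe A_01_P001259 (0.947). The 8 arrays share their platform and fall into the same groups that differ for PIWIL4, and these r are a description. ST5 lay at 2.16, 2.26, 2.10 and 2.42 in the conception group and 2.77, 2.85, 2.78 and 2.63 in the non-mated group, a difference of -0.52 ± 0.21, and THAP4 differed by -1.30 ± 0.30, both without overlap.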

How the data were processed

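Endometrial total RNA was measured on Agilent 1-colour arrays as Cy3-labelled cRNA, per the labels' protocols. The deposited scanner files hold the fluorescence intensity of each spot, background-corrected by Agilent Feature Extraction, whose version is 9.5.3.1 per the file headers and 10.7.3.1 per the submitters' processing notes. A table of log2 values deposited by the authors served as an alternative. Its scale and direction were found by setting it against the scanner values, and the baseline of its centring is unknown. Its column medians at day 6 were 0.105, 0.0160, -0.364 and -0.0738 for conception replicates 1 to 4 and -0.141, -0.302, -0.303 and -0.199 for the non-mated ones, and its differences between arrays correlated with those of the scanner values at r from 0.973 to 0.998.

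Control spots and flagged outliers were left out (616 spots on conception replicate 3, at most 24 on the other day 6 arrays) and the 2 spots of a probe were averaged. The level was log2 of the processed intensity minus the array's 75th percentile. A filter kept probes that at least 3 of 4 arrays of either group measured well above background, and for a gene with several probes the probe of highest mean. Of the 20217 probes, 7460 carried a current gene name, 251 an older symbol that was updated, 500 a name without a match that was kept, 4100 were named through a gene ID, accession or description with RefSeq's gene table, and 7906 stayed unnamed.

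Groups were compared with limma 3.58.1 in R 4.3.3 (lmFit and eBayes, two-sided, Benjamini-Hochberg over all 11414 features, threshold 0.05), with 6 residual degrees of freedom. The interactions and the levels of days 2 and 4 used the 21 arrays with at least 50% of probes well above background. Files were read and plots drawn in Python 3.11.15 (pandas 2.3.3, numpy 2.4.6, matplotlib 3.10.9). The procedure was tested on simulated data, in which 12 of the unaltered features were called.

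Named were up to 15 features with a symbol of smallest p in each direction, the genes that passed in the fits of 21 or 24 arrays, up to 4 members of smallest p of each list and 1 in the opposite direction, the 5 features most like PIWIL4, and 7 landmark genes, of which PAEP, SPP1 and LIF were analysed here. The genes, the 30 gene lists and the 13 marker lists were chosen with earlier results of these data known. Some genes that these rules gave are not reported here. The remaining list members named were picked to show how a list divided. Alternatives covered background correction (normexp with an offset of 50 intensity units), scaling, the authors' table, the filter, the arrays that share the spread, slide and scan day as blocks, and each array left out, the last also for the 21-array fit, where it was added after seeing the data. List medians not given above were -0.09 (interleukins, chemokines and their receptors), -0.07 (extracellular matrix), -0.04 (insulin-like growth factor axis), -0.11 (steroid hormone metabolism), 0.04 (ion channels and carriers), 0.36 (NDRG and differentiation stress), -0.10 (endothelium), 0.10 (smooth muscle), -0.07 (ciliated epithelium), 0.14 (B and plasma cells), 0.31 (mast cells, 1 member), -0.43 (histamine), 0.33 (erythrocytes, 2 members), 0.46 (trophoblast and blastocyst, 3 members) and -0.06 (stromal fibroblasts). The stromal median was -0.29 without conception replicate 1, -0.45 on scan day 1 and 0.52 on scan day 2.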

Additional observations from a re-analysis of the deposited data

Results flagged for a closer look

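Single arrays lay far from the other 3 of their group in 16 of 298 sets of 4 values examined (Dixon's test at 95%, by which chance gives about 1 set in 20, or 5%). Conception replicate 1 was the array in 7 of the 16, non-mated replicate 4 in 5, conception replicate 4 in 2, and conception replicate 2 and non-mated replicate 3 in 1 each. NNMT, TOX2 and SAFB2 were named from the features that passed without conception replicate 1. The count for that array was therefore partly fixed by the choice of genes.

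Conception replicate 1 was the highest of its group for NNMT at -1.32, TOX2 at -0.25, SAFB2 at -0.20, PRKX at -1.41 and WNT3 at -4.05, and the lowest for NCAM1 at -4.24 and CFAP100 at -4.97. The other 3 conception arrays lay between -6.22 and -5.47 for NNMT, -6.22 and -5.69 for TOX2, and -6.03 and -5.69 for WNT3, whose probe was well above background on 0 conception arrays. Non-mated replicate 4 was the lowest of its group for TEX29 at -1.33, KCNK13 at -1.84, ZBTB16 at 2.42 and the array score of the histamine list at -1.53, and the highest for the natural killer cell score at 0.56, where the other 3 lay between -0.74 and -0.67.

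Conception replicate 2 was the highest for GUCA2A at -2.45. Conception replicate 4 was the lowest for KRT19 at 1.16 and the highest for the histamine score at -1.52. Non-mated replicate 3 was the highest for the score of sterol and fatty acid synthesis at 0.87, against 0.37 to 0.42 on the other 3.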

How the results depend on the processing

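The count of 0 passing features became 1 with all 24 arrays, 3 with 21 arrays, 1 with the slide as a random block in 24 arrays, and 0 to 20 when a day 6 array was left out (20 without conception replicate 1, and 1 each without non-mated replicate 3, PRAME, and replicate 4, HRH1). The 3 genes of the 21-array fit became 0 with normexp and 0 to 16 when an array was left out (16 without conception day 6 replicate 1), alternatives chosen after seeing the data. The 497 features without overlap became 207 with normexp and 1207 of 19198 without a filter, where the median of all features moved from -0.003 to 0.24, and 580 to 2218 when an array was left out (2218, 760 and 848 without conception replicate 1, 2 or 4, and 777 and 1045 without non-mated replicate 1 or 4). Fewer arrays make overlap less likely by construction. The causes of the other changes were not tested.

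Of 2186 alternative values of 106 named genes, 2175 kept their direction. The 11 that reversed belong to PAEP and SPP1. Many of the 106 genes were named for a small p in these same arrays. Where the groups did not overlap, leaving out an array could not reverse the direction, so the count was partly fixed in advance. PAEP, at -0.49 to 0.16 when an array was left out, became 0.028 with normexp, 0.82 with the slide as a fixed block, 0.08 and 0.01 without conception replicate 3 or 4, and 0.14 and 0.16 without non-mated replicate 1 or 4. SPP1, at -0.79 to 0.34 when an array was left out, became 0.20 with the slide as a fixed block, 0.09 and 0.21 without conception replicate 2 or 4, and 0.34 and 0.26 without non-mated replicate 2 or 3.

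Of 796 alternative medians of 40 lists, 13 moved by at least the SD between arrays. With the slide as a fixed block the medians were 0.29 for receptivity, -0.051 for ribosomal proteins, -0.24 for oxidative phosphorylation, 0.18 for interleukins and chemokines, 0.41 for the EGF family and -0.74 for prostaglandins, and among genes above background on all 8 arrays the Wnt median was 0.24. The receptivity median ranged from -0.55 to 0.15 when an array was left out, the complement median from 0.027 (without conception replicate 3) to 0.52, the EGF family median from -0.15 to 0.10, the histamine median from -0.77 to -0.21, and that of ion channels and carriers from -0.088 to 0.28.

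Whether the numbers of the replicates pair the arrays could not be settled from the values. Same-numbered arrays deviated together with r of 0.01, -0.24, 0.21 and 0.04, and not every array correlated best with its own number. The largest r, 0.30, was between conception replicate 2 and non-mated replicate 1, which share slide 1, so shared slides enter these r. With the replicate block 0 features passed and 991 had an unadjusted p under 0.05. With 24 arrays, quantile normalization or normexp, 0 features passed the interaction of day 6 with day 2 (254, 519 and 189 at an unadjusted p under 0.05) or with day 4 (411, 296 and 137). With 4 arrays a group, simulated log2 differences of 1 were called in 12% of cases and of 2 in 58%. These shares depend on how many features the simulation altered and do not carry over to these arrays. Probes not well above background give bounds only.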
